A study of Mus musculus with 41 samples.

Results

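Mouse melanomas collected 6 days after doxycycline withdrawal were set against those collected 1 day after it. The comparison used 11 of the 41 tumours of the series, the 4 labelled as 6 days off doxycycline and the 7 labelled as 1 day, and all other tumours served to estimate the spread or to give the days between. All 41 are melanomas of iBIP mice, in which doxycycline in the drinking water keeps mutant BRAF switched on, so both days compared had lost the drug. Skin was trimmed off each tumour, a piece of the remaining tissue was kept frozen, and total RNA was taken with Trizol and hybridised to Affymetrix Mouse Genome 430 2.0 arrays. The strain label is the same in both groups. Its alleles, the promoter that drives the transgene, and the age and sex of the mice are not given in the sources used here. Whether any 2 tumours share a mouse is not stated in the labels, so p-values measure the spread between these samples only.

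BRAF is a kinase that activates MEK, which activates ERK. ERK in turn induces transcription factors of the ETS family, cyclin D1, and a set of its own inhibitors, among them the Dusp phosphatases and the Sprouty and Spred proteins. The RNA level of these targets is therefore widely read as the output of the pathway. Melanocytes and the neural crest cells from which they come depend on the transcription factors Sox10 and Mitf, and melanoma cells shift between pigmented and neural crest-like states.

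Values are log2 intensities after quantile normalisation, and differences are day 6 minus day 1 with the standard error (SE) from limma, a linear model with a moderated estimate of the spread fitted to all 41 tumours. A gene was called when its Benjamini-Hochberg adjusted p over 14319 genes lay under 0.05. A call says that the difference is large against the spread between tumours within groups over all 41, not within days 1 and 6 alone. All tissue is bulk, so fewer cells of a type and less RNA per cell cannot be told apart.

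The arrays of most day 1 tumours stood apart from those of day 6 in their control probe sets. The control bioD, added at hybridization, averaged 11.80 ± 0.10 (SD, n = 4) at day 6 and 12.09 ± 0.17 (n = 7) at day 1, with an exact permutation p of 0.0121 (two-sided, adjusted p = 0.0303 over 5 measures). The control dap, added before labelling, lay between 9.67 and 9.99 at day 6. At day 1 it lay between 8.51 and 9.22 in 6 tumours and at 10.12 in replicate 4 (exact permutation p = 0.0303, adjusted p = 0.0505). The difference between 3′ and 5′ Gapdh probe sets, which widens as RNA is degraded, averaged -0.11 ± 0.10 at day 6 and 0.51 ± 0.34 at day 1 (exact permutation p = 0.00606, the smallest that 330 splits allow, adjusted p = 0.0303). It was 0.03 in day 1 replicate 4 and between 0.33 and 1.04 in the other 6. The same difference for actin and for the transferrin receptor did not pass (adjusted p = 0.0606 and 0.121). Arrays with bioD under 12 are called set 1 here, and those above it with dap under 9.4 set 2. Set 1 held all 4 tumours of day 6, all of days 2 and 3, and of day 1 replicate 4 alone, while set 2 held the other 6 of day 1. With 1 tumour of day 1 in set 1, day and spike-in set can hardly be told apart, so the level of replicate 4, or the difference from it, is given beside the results.

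**Figure D1:**
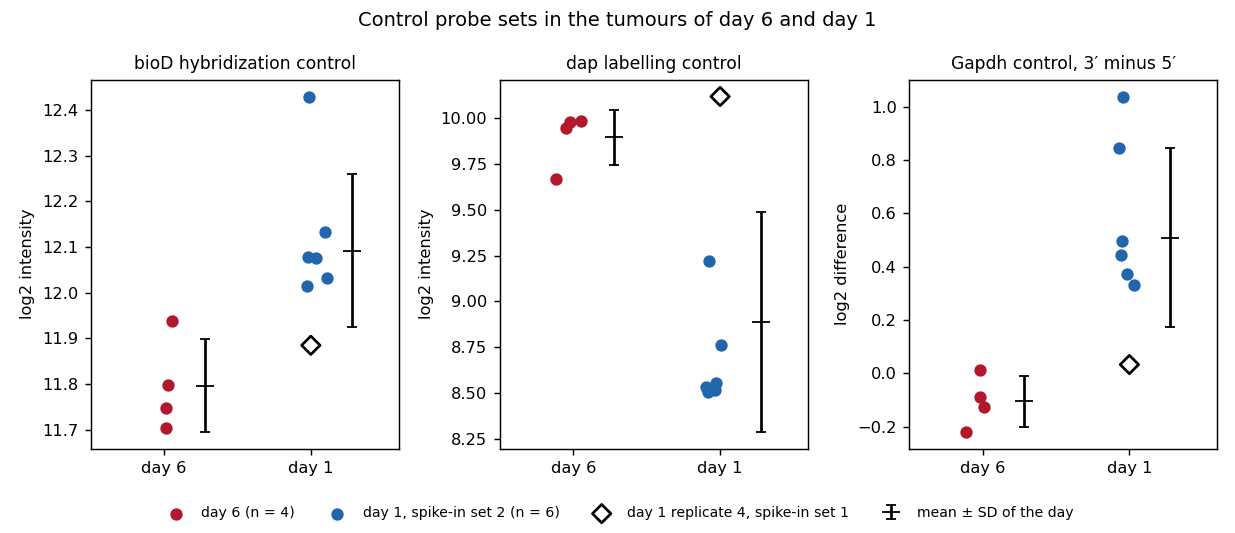
Log2 intensity of the bioD and dap controls and the Gapdh 3′ minus 5′ difference (log2), 1 point per tumour, with bars for the mean ± SD of each day. Day 1 replicate 4 (open diamond) has bioD 11.88, dap 10.12 and a Gapdh difference of 0.03, within the day 6 range for bioD and just above it for the other measures.

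Of 14319 genes tested, 598 were called (4.18%), 239 higher at day 6 (1.67%) and 359 lower (2.51%). Genes whose groups did not overlap made up 5.63% of those tested, 2.44% with all day 6 tumours higher and 3.18% with all lower. Without day 1 replicate 4 the calls numbered 1165 (8.14%). Among these 1165 genes the tumour left out lay nearer to the day 6 mean than to the mean of the other 6 day 1 tumours in 932, or 80%. Over all genes tested that share was 60.4%. When day 6 was compared with replicate 4 alone, as happens when the spike-in set enters limma as a block, no gene was called, and 210 had an unadjusted p under 0.05, against 2751 in the full comparison. With the fit limited to set 1 no gene was called either (387 at an unadjusted p under 0.05). No gene was called between day 6 and day 2, all of set 1 (572 at an unadjusted p under 0.05). These comparisons with 1 tumour or 5 in place of 7 show what the fit does not call, and do not show that levels were equal.

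Genes of MAPK output mostly lay lower at day 6 than at day 1. The list of pathway outputs, like the others, was written with earlier results of these data known. Of its 30 tested genes, 3 were called lower (2.51% over all genes), none was called higher, and 26 had a difference below 0. The median difference was -0.50, against -0.01 over all genes. It was -0.77 against day 1 replicate 4 alone and -0.47 against the other 6, so the tumour of set 1 gave the larger difference. The mean level of the list lay between 8.14 and 8.38 at day 6 and between 8.44 and 8.98 at day 1, where replicate 4 was the highest tumour. Groups did not overlap for 7 of the 30 genes, all lower at day 6, where 3.18% of all genes were.

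Etv4, an ETS transcription factor gene that ERK induces, had 6.97, 6.67, 7.01 and 6.78 log2 intensity at day 6, against a lowest, median and highest of 7.23, 7.79 and 8.16 at day 1. Every day 6 tumour lay below every day 1 tumour, replicate 4 (7.53) included. The difference was -0.83 ± 0.17, or 1.78-fold lower (limma adjusted p = 0.00449). It was -0.68 against replicate 4 and -0.85 against the other 6. Between the 2 days, Etv4 averaged 7.33 ± 0.36 (SD, n = 5) at day 2 and 6.97 ± 0.24 (n = 6) at day 3, so the mean at day 3 was already near that of day 6 (6.86 ± 0.16). The Etv4 call held whichever 1 of the 11 tumours was left out.

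Spred3, which encodes an inhibitor of RAS to ERK signalling, had 6.08, 6.09, 6.05 and 6.04 at day 6, against 6.44, 6.88 and 7.59 at day 1 (lowest, median, highest). The day 6 tumours were close together at a low level, and all were below the lowest day 1 tumour. Spred3 was 1.80-fold lower at day 6 (-0.85 ± 0.20, limma adjusted p = 0.0124), with -0.82 against replicate 4. This call also held in all 11 leave-outs. Phlda1, a target of ERK that encodes a pleckstrin homology-like protein, had 8.76, 8.54, 8.92 and 8.73 at day 6, against 9.27, 9.70 and 10.43 at day 1. The groups did not overlap, the difference was -0.98 ± 0.29 (limma adjusted p = 0.0476) and replicate 4 (9.75) stood close to the day 1 median. The Phlda1 call was lost in 9 of the 11 leave-outs, all but those of day 1 replicates 4 and 5, with adjusted p up to 0.126.

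The other feedback genes had differences below 0 that did not pass the test on 1 probe set per gene in the main fit. Spry2, a Sprouty inhibitor of receptor signalling, differed by -0.60 ± 0.19 (limma adjusted p = 0.0596), passed it without day 6 replicate 4 (0.0454), and differed by -1.09 from day 1 replicate 4. When every probe set was tested, this one passed (0.0369), while the other Spry2 probe set gave 0.02. Spry4, another Sprouty, differed by -0.59 ± 0.19 (0.0708), passed it without day 1 replicate 4 or 6 (0.0452 each), and differed by -0.38 from replicate 4. Its 3 probe sets gave -0.92 to -0.38, and all 3 passed when every probe set was tested. The phosphatase genes Dusp4 and Dusp6 differed by -0.62 ± 0.40 and -0.43 ± 0.22, their groups overlapped, and the differences from replicate 4 were -1.40 and -0.81. Ccnd1, which encodes cyclin D1, differed by -0.54 ± 0.25, and Etv5, a second ETS factor, by -0.51 ± 0.25, with -0.59 and -0.65 against replicate 4. The Etv5 probe sets disagreed, with values from -0.51 to 0.42. Myc, a growth regulator downstream of ERK, differed by -0.03 ± 0.28, with 8.97 in replicate 4 and 7.59 to 8.31 in the other day 1 tumours.

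A further 4 list members, picked here after their values were seen because their groups did not overlap, missed the call in the main fit. Hbegf, an EGF receptor ligand, had the largest difference at -1.03 ± 0.34 (limma adjusted p = 0.0757) and -1.31 against replicate 4. Egr1, an immediate early transcription factor, differed by -0.76 ± 0.33 (0.2). Spred2, a relative of Spred3, differed by -0.49 ± 0.19 (0.143), and Hmga2, a chromatin protein, by -0.87 ± 0.54 (0.394). Against replicate 4 Egr1 had -1.10, Spred2 -0.63 and Hmga2 -1.11. In 15 alternative fits other than leave-outs, Hbegf and Spred2 were called in 3 each, Egr1 in 1 and Hmga2 in none. Spred2 was called with only days 1 and 6 (limma adjusted p = 0.0426).

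**Figure D2:**
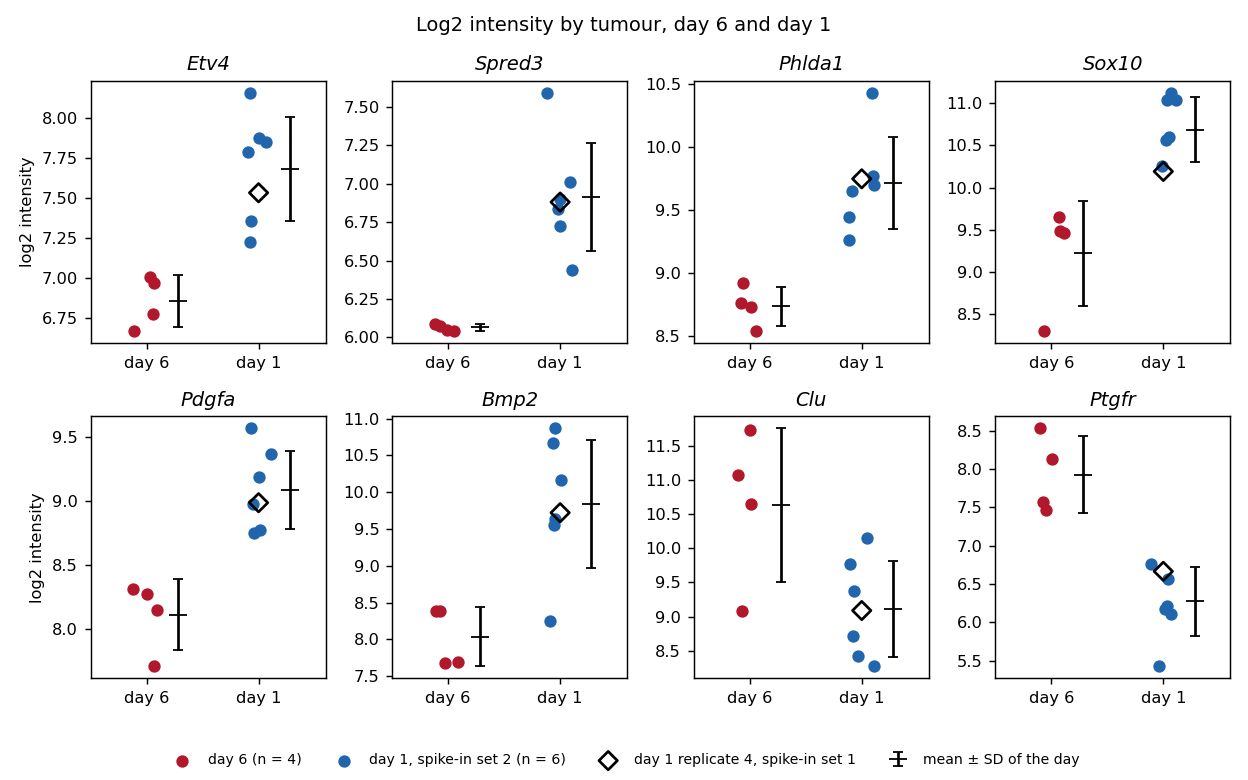
Log2 intensity of 8 genes, 1 point per tumour, with mean ± SD of each day; the open diamond is day 1 replicate 4. For Etv4, Spred3, Phlda1, Sox10, Pdgfa and Ptgfr no tumour of day 6 overlaps one of day 1, while the groups overlap for Bmp2 and Clu.

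Lineage genes did not move as one group. Of 28 tested melanocyte and neural crest genes, 2 were called lower (2.51% over all genes) and none higher, 14 lay above 0 and 14 below, and the median was -0.01, the same as over all genes. Sox10, the neural crest transcription factor that acts upstream of Mitf, had 9.65, 8.30, 9.48 and 9.46 at day 6, against 10.19, 10.60 and 11.12 at day 1. All day 6 tumours were lower, and day 6 replicate 2 stood far below the other 3. The fall was 2.76-fold (-1.46 ± 0.28, limma adjusted p = 0.00314). It was -0.97 against replicate 4, the lowest day 1 tumour, and -1.55 against the other 6. The 3 probe sets of the gene ranged from -1.46 to -0.08. Sox10 averaged 9.21 ± 0.48 (SD, n = 5) at day 2, so day 6 minus day 2 was 0.02. The call held in all 11 leave-outs.

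Ngfr, a neurotrophin receptor that marks neural crest-like cells, had 8.22, 7.53, 8.33 and 7.96 at day 6, against 8.52, 9.10 and 9.53 at day 1. The groups did not overlap (-1.08 ± 0.31, limma adjusted p = 0.039), but replicate 4 was the lowest day 1 tumour and the difference from it was -0.51. The Ngfr call was lost in 10 of 11 leave-outs, all but that of day 1 replicate 4. The other Ngfr probe set gave -0.10. Mitf, Dct and Pmel were not called in the main fit. Mitf, the master regulator of pigment cells, differed by 0.40 ± 0.29. The pigment enzyme gene Dct differed by 0.53 ± 0.40 and the melanosome gene Pmel by 0.37 ± 0.13 (limma adjusted p = 0.0897). Against replicate 4 Mitf had 0.59, Dct 0.31 and Pmel 0.20. Kit, the receptor that melanocytes need, had non-overlapping groups at 0.89 ± 0.42 (0.239), and the neural crest filament gene Nes had them at -0.67 ± 0.22 (0.0765). Mia, a secreted melanoma protein, stood at 0.26 ± 0.23, at low mean levels of 5.22 at day 6 and 4.96 at day 1. Against replicate 4 Kit had 0.92, Nes -0.51 and Mia 0.26. Kit, Nes and Mia are named after their values were seen. In alternative fits other than leave-outs, Kit was called in 2 of 15, Nes in 5 and Pmel in 3. Mitf, Dct and Mia were called in none. With only days 1 and 6, Kit and Pmel had limma adjusted p of 0.0316 and 0.0496.

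Growth factor genes held one fall and one rise. Pdgfa, a ligand of the PDGF receptors, had 8.28, 7.71, 8.15 and 8.31 at day 6, against 8.75, 8.99 and 9.57 at day 1. No tumours overlapped, and the level was 1.97-fold lower (-0.97 ± 0.18, limma adjusted p = 0.00282), with -0.87 against replicate 4. The call held in all 11 leave-outs, and both Pdgfa probe sets were called. Pdgfra, the receptor that binds it, had 11.57, 12.37, 11.77 and 11.81 at day 6, against 10.38, 11.11 and 11.62 at day 1. It was 1.77-fold higher (0.83 ± 0.23, limma adjusted p = 0.0315) with 1 pair of tumours overlapping, but by 0.35 against replicate 4, and the call was lost in 5 of 11 leave-outs (without day 6 replicates 2, 3 and 4 and day 1 replicates 1 and 7). Of 33 tested receptor and ligand genes, those were the only 2 calls (4.18% over all genes), and the median was 0.21, but -0.01 against replicate 4.

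The largest called fall was that of Bmp2, a bone morphogenetic protein. Bmp2, Zbed6, Slc20a1, Nwd2, Cygb and Loxl3 here, and Phlda1 and Sox10 above, were named partly for a large difference from replicate 4 as well, so their place against it is by choice. Bmp2 had 7.69, 8.38, 8.38 and 7.68 at day 6, against 8.25, 9.72 and 10.87 at day 1. One day 1 tumour lay at 8.25, within the range of day 6, and replicate 4 stood at the median. The difference was 3.49-fold (-1.80 ± 0.45, limma adjusted p = 0.017), with -1.69 against replicate 4. The call ended without day 6 replicate 1 (adjusted p = 0.0591) or replicate 4 (0.0648). Bmp2 averaged 9.45 ± 0.91 (SD, n = 5) at day 2 and 8.71 ± 0.78 (n = 6) at day 3.

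Zbed6, a zinc finger repressor gene of transposon origin, had 6.14, 5.70, 6.51 and 6.11 at day 6, against 7.14, 7.75 and 8.36 at day 1. The groups did not overlap, and the fall of 1.66 ± 0.41 (limma adjusted p = 0.0169) was nearly the same against replicate 4 (-1.63), while a second Zbed6 probe set gave -0.41. Its call ended without day 6 replicate 2 (adjusted p = 0.0676). Slc20a1, a phosphate transporter, had 10.15, 9.87, 10.31 and 9.82 at day 6, against 10.06, 11.29 and 11.46 at day 1. It fell by 1.07 ± 0.25 (limma adjusted p = 0.0114), with -1.33 against replicate 4 and a single low day 1 tumour that overlapped. Slc20a1 and Tmem200c, a membrane protein of little known function, kept their calls in all 11 leave-outs. Tmem200c differed by -1.40 ± 0.31 (limma adjusted p = 0.00882), and by -0.85 from replicate 4.

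Further called falls did not hold in every leave-out either. Msx1, a homeobox gene, differed by -1.31 ± 0.31, and without day 6 replicate 2 its adjusted p was 0.0543. Pnmal2, named for a family of neuronal antigens, differed by -1.15 ± 0.29, and without the same tumour its adjusted p was 0.0818. Sema7a, a membrane-anchored semaphorin, differed by -1.31 ± 0.32 and lost its call without day 6 replicates 1, 3 or 4. For Nwd2 (-1.38 ± 0.41), Cygb, a globin gene (-1.35 ± 0.40), and Tagln, a smooth muscle actin-binding protein (-1.18 ± 0.34), the call was lost in 8, 8 and 7 leave-outs. Loxl3, a lysyl oxidase (-1.07 ± 0.31), and Ncam1, a neural adhesion molecule (-0.88 ± 0.25), each lost it in 9. Differences from replicate 4 were -1.83 for Nwd2, -1.14 for Cygb, -0.97 for Loxl3 and -0.88 for Ncam1, but -0.80 for Msx1, -0.60 for Sema7a, -0.60 for Pnmal2 and -0.52 for Tagln, so the size against the set 1 tumour varied. Second probe sets gave -0.20 for Msx1 and -0.24 for Sema7a, and those of Ncam1 ranged from -0.88 to 0.05.

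**Figure D3:**
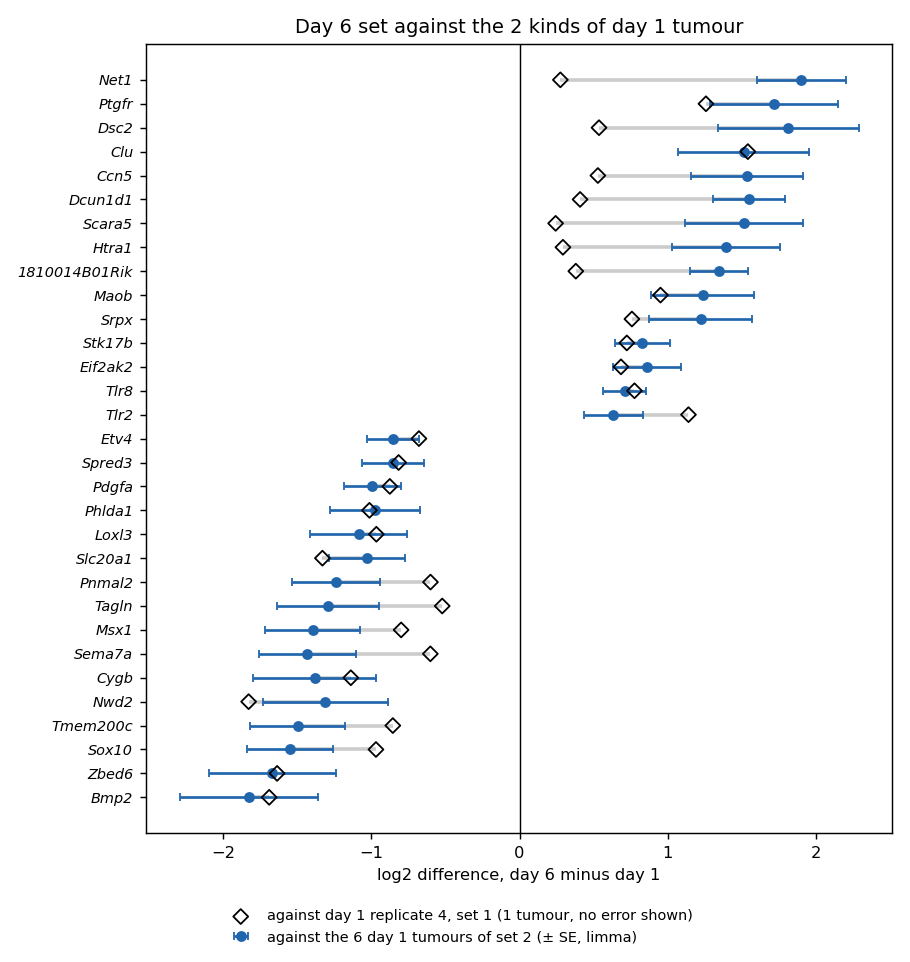
Day 6 minus day 1 (log2) for the largest calls and for the calls that stood out from replicate 4, set against the 6 day 1 tumours of set 2 (filled points ± SE) and against replicate 4 alone (open diamonds). Etv4 has -0.85 and -0.68 and Spred3 -0.85 and -0.82, the agreement of Phlda1, Zbed6 and Bmp2 is partly fixed by how they were chosen, and Net1 has 1.90 and 0.28, and Dcun1d1 1.55 and 0.41.

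Some rises were of similar size against replicate 4. Clu here, and Ptgfr, Maob and Srpx below, were named partly for a large difference of the same sign from replicate 4. Their place against replicate 4 is therefore by choice. Clu, which encodes the secreted chaperone clusterin, had 9.08, 11.72, 10.64 and 11.07 at day 6, against 8.27, 9.09 and 10.15 at day 1. Of the day 6 tumours, 3 lay above all of day 1, and day 6 replicate 1 lay at the day 1 median. The rise was 2.86-fold (1.51 ± 0.42, limma adjusted p = 0.0343), with 1.54 against replicate 4. All 4 Clu probe sets were higher, from 1.32 to 1.69. The call was lost in 6 leave-outs, without day 6 replicates 2, 3 and 4 and day 1 replicates 1, 5 and 7.

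Ptgfr, the prostaglandin F receptor gene, had 7.46, 8.13, 7.57 and 8.53 at day 6, against 5.43, 6.22 and 6.76 at day 1. The groups did not overlap (1.65 ± 0.42, limma adjusted p = 0.0197), and replicate 4 stood at 6.67. Its call ended without day 6 replicate 2 (adjusted p = 0.0623) or 4 (0.0894). Maob, a monoamine oxidase, differed by 1.19 ± 0.33 and Srpx, a secreted protein, by 1.15 ± 0.33, with no overlap of groups for either and with 0.95 and 0.76 against replicate 4. The call was lost in 7 leave-outs for Maob and 8 for Srpx.

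Smaller rises included Tlr8, an endosomal receptor for RNA, which had 6.57, 6.79, 7.01 and 6.82 at day 6, against 5.79, 6.12 and 6.29 at day 1. All day 6 tumours were higher (0.72 ± 0.14, limma adjusted p = 0.00341), the difference from replicate 4 was 0.77, and the call held in all 11 leave-outs. Tlr8 lay at a low level at day 1, and its difference was 0.88 with a pseudocount of 1 and 0.46 with 64. Stk17b, a kinase gene of lymphoid and myeloid cells, had 10.85, 11.40, 11.10 and 11.35 at day 6, against 10.14, 10.31 and 10.81 at day 1. It too kept its call in all 11 leave-outs (0.81 ± 0.18, limma adjusted p = 0.00808), with 0.72 against replicate 4. Eif2ak2, the interferon-induced kinase PKR, differed by 0.83 ± 0.22 (0.0256) and Tlr2, a receptor for bacterial lipoproteins, by 0.70 ± 0.20 (0.033), with 0.68 and 1.14 against replicate 4. These 4 genes were chosen by the same rule as Clu. The complement receptor C5ar1, named from its list, differed by 0.59 ± 0.14 (0.0122), but by 0.30 from replicate 4. With pseudocounts of 1 and 64 the C5ar1 difference was 0.73 and 0.37, from a low day 1 mean of 6.06. The call was lost in 5 leave-outs for Eif2ak2, 6 for Tlr2 and 1 for C5ar1 (day 6 replicate 4). Other probe sets were smaller, down to 0.12 for Stk17b, 0.36 for Eif2ak2 and -0.12 for C5ar1.

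In a further group of called rises, day 1 replicate 4 lay nearer to day 6 than to the other day 1 tumours. For Dcun1d1, Skp1 and 1810014B01Rik it was still below every day 6 tumour. Net1, a guanine nucleotide exchange factor gene, had 7.24, 7.73, 8.02 and 8.15 at day 6, against 5.65, 5.93 and 7.51 at day 1. The highest day 1 tumour was replicate 4, and the other 6 lay between 5.65 and 6.22. The rise of 3.18-fold (1.67 ± 0.33, limma adjusted p = 0.00354) was 0.28 against replicate 4 and 1.90 against the other 6. Those 6 tumours lay at a low level, and the Net1 rise was 1.95 with a pseudocount of 1 and 1.17 with 64. Days 2 and 3, all of set 1, had means of 7.85 ± 0.60 (SD, n = 5) and 7.75 ± 0.58 (n = 6).

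Dcun1d1, which promotes neddylation of cullins, had 8.29, 7.91, 7.87 and 8.33 at day 6, against 6.01, 6.68 and 7.69 at day 1, again with replicate 4 on top. The difference was 1.38 ± 0.26 (limma adjusted p = 0.00261), with 0.41 against replicate 4, and the Dcun1d1 mean at day 2 was 8.26 ± 0.28. Its 5 probe sets disagreed, from -0.13 to 1.38, with 3 of 5 higher. The cullin partner Skp1 differed by 0.72 ± 0.16 (0.00656) and by 0.13 from replicate 4. The list of cullin machinery genes was written with earlier results of these data known. Of its 27 tested genes, 3 were called higher (1.67% over all genes) and none lower. The third was Dcun1d4, for which replicate 4 lay with the other day 1 tumours (0.42 ± 0.11, and 0.39 against replicate 4). For Arhgef7, an exchange factor of Rac and Cdc42, the difference of -0.54 ± 0.14 was -0.10 against replicate 4, and for Arhgef10, another exchange factor gene, -0.69 ± 0.20 was -0.16. The call was lost in 7 leave-outs for Arhgef7 and 10 for Arhgef10, and Dcun1d4 lost its own without day 6 replicates 2 or 3 or day 1 replicate 3.

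The clone 1810014B01Rik, with no known role given here, differed by 1.21 ± 0.21 and by 0.38 from replicate 4. Ccn5, a matricellular growth regulator, had 1.39 and 0.53 in the same order, Scara5, a ferritin receptor, 1.33 and 0.24, Htra1, a secreted protease, 1.24 and 0.29, and the desmosomal cadherin Dsc2 1.63 and 0.54. Net1, Dcun1d1, 1810014B01Rik and Skp1 kept their calls in all 11 leave-outs, while Ccn5, Scara5, Htra1 and Dsc2 lost theirs in 5, 7, 8 and 7. A second Scara5 probe set gave 0.12. The part of the spike-in set in these rises was not tested beyond these values.

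**Figure D4:**
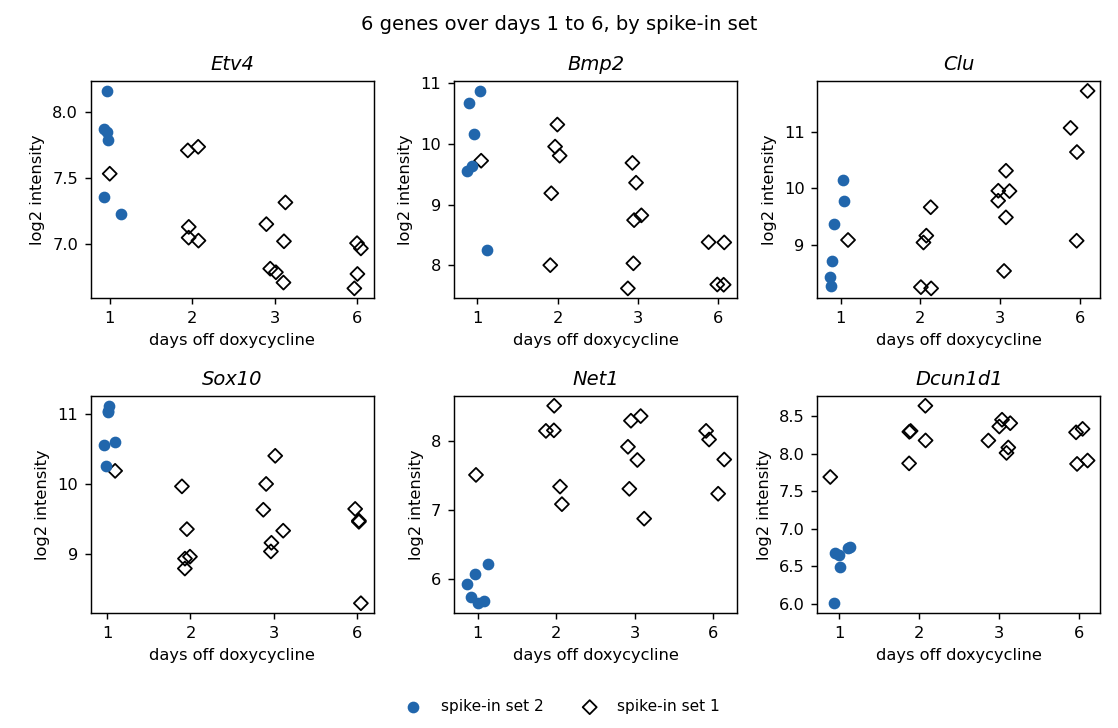
Log2 intensity of 6 genes at days 1, 2, 3 and 6 off doxycycline, 1 point per tumour, with filled points for spike-in set 2 and open diamonds for set 1. Etv4 and Bmp2 have lower means at each later day and Clu has its highest tumours at day 6, while for Net1 and Dcun1d1 the set 1 tumour of day 1 (7.51 and 7.69) lies above the other day 1 tumours and near those of days 2, 3 and 6.

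Some metabolic and stress lists gave single calls, a share near the 4.18% over all genes. Shmt2, Hspa8 and Ndufa2 below were each the only call of their list. Those lists held 26 ATF4 target, 23 unfolded protein and heat shock and 27 respiratory chain genes tested. Pold1, a subunit of DNA polymerase delta, differed by -0.58 ± 0.16 (limma adjusted p = 0.0305). It was the only call among 27 DNA replication genes (4.18% over all genes), whose median was -0.20 with 23 of 27 below 0. Against replicate 4 Pold1 had -0.33, and the list a median of -0.02 with 15 of 27 below 0. Shmt2, a mitochondrial serine enzyme that ATF4 induces, differed by -0.73 ± 0.18 (0.0144), with -0.33 against replicate 4 and probe sets that ranged from -0.73 to 0.00. Hspa8, a constitutive heat shock protein gene, differed by -0.35 ± 0.10 (0.0315), and by -0.16 from replicate 4. The 4 probe sets of Hspa8 ranged from -0.76 to 0.04. Ndufa2, of respiratory complex I, differed by -0.47 ± 0.14 (0.045), but by -0.07 from replicate 4. Of these calls, Shmt2 was lost without day 6 replicate 1 or 4 and the others in 8 or 9 leave-outs. Gjb1, a connexin of Schwann cells, was higher by 0.32 ± 0.09 (0.0435) at a low level of 5.61 ± 0.07 at day 6 (SD, n = 4) and 5.29 ± 0.06 at day 1 (n = 7), and its call was lost in 10. Its difference from replicate 4 was 0.22.

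Cell cycle genes leaned downward without a call. Of 27 tested mitosis genes 25 were below 0, with a median of -0.24, and the list level lay between 7.44 and 8.29 at day 6 and between 7.72 and 8.39 at day 1, so the tumours overlapped. Against replicate 4 the mitosis median was -0.07. Mki67, the proliferation marker, had 10.25, 9.14, 10.00 and 9.55 at day 6 and a range of 9.76 to 10.28 at day 1 (-0.32 ± 0.35, limma adjusted p = 0.664), with -0.20 against replicate 4. Ribosome biogenesis genes had a median of -0.14, with 21 of 28 below 0 and none called, and of -0.20 against replicate 4.

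Over all 34 gene lists, 766 of 849 genes were tested and 21 were called, 7 higher and 14 lower, a share of 2.74% beside the 4.18% over all genes. No list member was called in 22 of the 34 lists. Immune lists depended on which day 1 tumour was used. T and NK cell genes had a median of -0.42 with 25 of 28 below 0, yet replicate 4 had the lowest T and NK level of day 1 (6.72, against 7.16 to 8.24 in the other 6), and the median against it was 0.52. MHC class II genes had a median of -0.17, with 3 of 10 above 0 and 7 below, and 1.11 against replicate 4. H2-Ab1, a class II chain also named after its values were seen, had 11.20 in replicate 4 and 12.16 to 13.57 in the other day 1 tumours. Its difference of 0.13 was the highest of that list, and it was 1.64 against replicate 4. Ccl5, a T cell chemokine named after its values were seen, had 7.59 in replicate 4, 9.17 to 11.58 in the other day 1 tumours and 8.56 to 10.71 at day 6. Interferon response genes had a median of 0.30, with 25 of 33 above 0 and none called, and of 0.52 against replicate 4.

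Macrophage genes had a median of 0.04, with 0.54 against replicate 4 and -0.01 against the other 6. Apoe, a lipid carrier of macrophages, differed by 0.37 ± 0.35, and by 0.46 from replicate 4. S100a9, a neutrophil protein gene, differed by 1.31 ± 0.87 with overlapping groups, and by 0.41 from replicate 4. Of 19 tested dendritic and mast cell genes, 12 lay above 0 and 7 below, from -0.78 to 1.20, and none was called. Their median was 0.23, and 0.61 against replicate 4. The mast cell genes named here all had differences above 0. The mast cell protease gene Cpa3 had 11.08, 11.29, 10.91 and 11.33 at day 6, against 9.23, 10.37 and 11.23 at day 1 (0.94 ± 0.61). Chosen after their values were seen, Mcpt4 differed by 1.20 ± 0.54, Tpsb2 by 0.95 ± 0.39 and the IgE receptor subunit Ms4a2, with no overlap of groups, by 1.06 ± 0.44 (limma adjusted p = 0.176). Against replicate 4 Cpa3 had 1.78, Mcpt4 1.35, Tpsb2 1.11 and Ms4a2 1.22. Ms4a2 was called in 2 of 15 alternative fits other than leave-outs, and Cpa3, Mcpt4 and Tpsb2 in none.

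Keratinocyte and hair follicle genes had the largest median of any list, 1.21, with 28 of 33 above 0 and none called. The list level lay between 7.86 and 9.90 at day 6, between 6.14 and 8.91 in 6 day 1 tumours, and at 9.19 in replicate 4, against which the median was -0.32. Krt14, a basal keratin, had 12.18, 13.63, 13.64 and 11.72 at day 6 and 7.58, 11.32 and 12.95 at day 1 (lowest, median, highest). Its difference of 2.05 ± 1.29 was not called, and replicate 4 held the 12.95. The labels' protocols say that skin was trimmed off the tumours. Dsc2 is also made by keratinocytes, and the part of keratinocyte RNA in its rise was not tested.

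**Figure D5:**
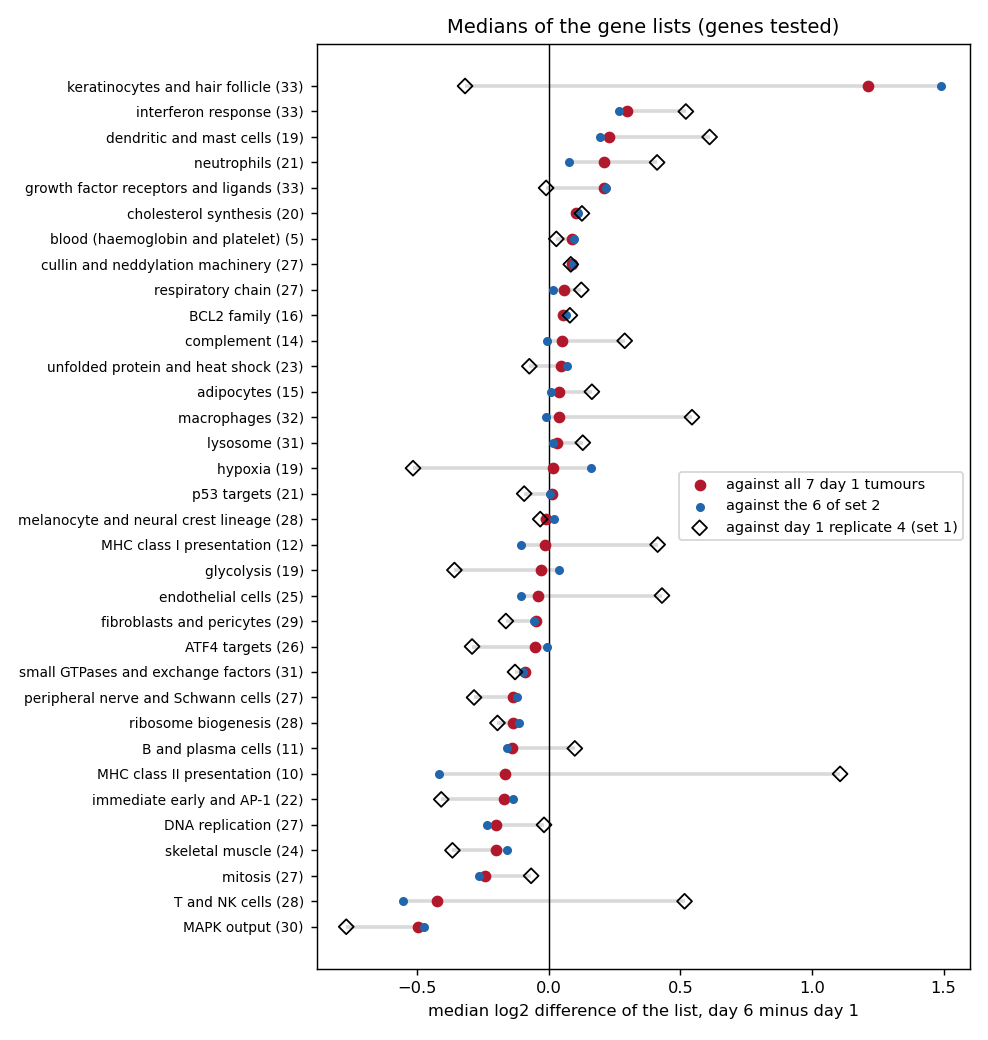
Median log2 difference (day 6 minus day 1) of the tested genes in each of 34 lists against all 7 day 1 tumours, against the 6 of set 2 and against replicate 4. MAPK output lies lowest against all 7 (-0.50) and stays below 0 in all 3, while keratinocyte (1.21 and -0.32), T and NK cell (-0.42 and 0.52) and MHC class II genes (-0.17 and 1.11) change sign against replicate 4.

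Of the 71 genes given values here, 44 were called, and 12 of these kept the call whichever of the 11 tumours was left out. They were Etv4, Spred3, Sox10, Pdgfa, Slc20a1 and Tmem200c among the falls and Stk17b, Tlr8, Net1, Dcun1d1, 1810014B01Rik and Skp1 among the rises. Every leave-out kept most day 1 tumours in set 2, so keeping a call cannot separate day from spike-in set. Of these genes, Net1, Dcun1d1, 1810014B01Rik and Skp1 differed by only 0.28, 0.41, 0.38 and 0.13 from replicate 4. Skp1 was not called with only days 1 and 6 (limma adjusted p = 0.0514), nor Stk17b with its probe sets averaged (0.304). With only days 1 and 6 in the fit, 31 of the 44 calls were kept. With day 2 in place of day 1, 0 of the 44 calls were kept.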

How the data were processed

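RNA from 41 mouse melanomas was measured as biotin-labelled cRNA on arrays, per the labels' protocols. The authors' deposited table holds 1 intensity per probe set and array on a linear scale, and per the submitters' processing notes RMA and MAS5 were used, without a version or a role for either. The genome build and detection calls are not given in the sources used here. Arrays have no read depth, and the number of arrays limits precision.

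From the deposited intensity, log2(value + 16) was computed and quantile normalised between arrays. Of 45101 probe sets, 34958 named 1 gene, 932 several and 9211 none. The 1-gene probe sets alone were kept and gave 18194 genes. The probe set of highest mean stood for a gene. Genes above the 40th percentile of their array in at least 3 arrays were tested, 14319 in all. Entrez identifiers matched the RefSeq table for 34754 of the 34958 probe sets that name 1 gene, and 0 symbols changed.

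One limma fit (limma 3.58.1, R 4.3.3) with a mean per day, the 10 tumours of days 63 to 163 pooled, gave 32 residual and 2.58 prior degrees of freedom. Control probe sets were compared by two-sided exact permutation tests. The members and lists were chosen with earlier results of these data known. Genes were named by rule: the 10 largest called rises and falls, up to 8 each way with the largest difference both overall and against the set 1 tumour, up to 3 called members of each list, and a set of MAPK, lineage and cell type genes, of which some are left out. Other genes are marked as chosen after their values were seen. In simulated data of the same design, 60%, 81% and 97% of genes changed 1.5-, 2- and 4-fold were recovered among 14319, and 6.11% of calls were false. The simulated noise held no effect of spike-in set.

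Alternatives were other scaling, pseudocounts of 1 and 64, no filter or the 60th percentile, other treatment of probe sets, smaller sets of days, robust limma, array weights, a block or a subset by spike-in set, the Gapdh difference as a covariate, day 2 in place of day 1, and each tumour left out. Figures used matplotlib 3.10.9 in Python 3.11.15, and permutation tests scipy 1.17.1.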

Additional observations from a re-analysis of the deposited data

Results flagged for a closer look

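In 216 groups of 4 or 7 values (a gene, control or list level at 1 day), a single tumour stood far from the rest in 13. Chance alone flags about 1 in 20 groups, so 13 is near that rate. At day 6, replicate 2 was the lowest tumour for Hmga2 (9.27), Sox10 (8.3), Pnmal2 (6.87) and the MHC class I list (10.41), and the highest for the endothelial list (8.56). Replicate 3 of day 6 was the highest for Mia (5.53) and the lowest for the dap control (9.67). At day 1, replicate 6 was the lowest for Slc20a1 (10.06) and Loxl3 (9.14) and the highest for the neutrophil list (9.63). Replicate 4 was the highest day 1 tumour for Net1 (7.51), replicate 7 for the B and plasma cell list (8.27) and replicate 2 for the skeletal muscle list (7.96).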

How the results depend on the processing

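No paired analysis was possible because the replicate numbers were given in deposit order and pair nothing. The 598 calls (239 higher, 359 lower) became 2486 (1571, 915) with every probe set tested, 1027 (397, 630) with only days 1, 2, 3 and 6, and 3200 (1480, 1720) with array weights. They became 0 in both directions with a block for spike-in set, with only set 1 and with day 2 in place of day 1, where limma gave 210, 387 and 572 at an unadjusted p under 0.05. Calls higher numbered 136 with arrays centred on their medians, 393 with probe sets averaged per gene, 154 with only days 1 and 6 and 372 with the Gapdh difference as a covariate. The share called higher was 39.97%, against 22.1% with median centring, 29.9% as deposited, 56.6% with probe sets averaged and 63.2% over every probe set. Leaving out 1 tumour gave 254 to 1165 calls, 116 to 482 higher and 138 to 683 lower, the lowest without day 6 replicate 3 and the highest without day 1 replicate 4. Some genes changed sign. Etv5 gave 0.076 with the mean of its probe sets. Myc gave 0.041 with array weights, 0.00075 with the Gapdh covariate and -0.12 to 0.12 with 1 tumour left out. With day 2 in place of day 1 the differences were 0.017 for Sox10, 0.0052 for Ngfr, 0.014 for Nes, -0.063 for Net1, -0.16 for Dcun1d1, -0.0040 for Skp1, 0.023 for Arhgef10, -0.32 for S100a9 and 0.33 for Ccl5. With the block or set 1 alone Krt14 gave -0.15 and Ccl5 2.21. With 1 tumour left out H2-Ab1 ranged from -0.13 to 0.32 and Ccl5 from -0.83 to 0.014. The cause of these changes was not tested, apart from what the settings themselves leave out.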
